A study of Bos taurus with 9 samples.

Results

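The miRNAs described here are those known for work on steroid production, proliferation and survival in granulosa cells: bta-miR-132, miR-212, miR-224, miR-320a, miR-320b, miR-378 with its relatives miR-378b, miR-378c and miR-378d, miR-383 and miR-202. A locus belonged to the group when the study's list of known and homologous miRNAs gave it one of these 11 names, with or without an arm suffix. The list itself holds only loci with a mean raw count of 100 or more in at least 1 follicle size, so a measured level had a part in which loci could be members. Of the 249 named miRNA loci of that list, 9 carried 7 of the names, which was 3.61% of them, and miR-212, miR-320b, miR-378d and miR-383 had no locus. Both loci of miR-378, both of miR-320a and miR-202 met the minimum of 100 in all 3 sizes, miR-224 in small and medium, and miR-132 in small and large. miR-378b and miR-378c met it only through the small follicle libraries, as did 72 of the 249 loci (28.9%). The deposited table held 101889 loci in all. The name miR-378 stood on 2 loci (chromosomes 4 and 7), as did miR-320a (chromosomes 8 and 20), and the other names stood on 1 locus each.

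Small RNA was sequenced from extracellular vesicles (EVs) of bovine follicular fluid. Follicles were sorted by diameter into small (3 to 5 mm), medium (6 to 9 mm) and large (over 9 mm), and each size had 3 libraries, each from a pool of many follicles, named here by the submitters' numbers (small 1, 2 and 4, medium 5, 6 and 8, large 10, 11 and 12). The ovaries came from an abattoir. The sources used here report no treatment of animals or follicles, and they give neither breed nor age. The pools held fluid from healthy and atretic follicles together, so each library is an average over follicles. The total count per library lay between 8941598 and 14664460.

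A miRNA is a short RNA that guides an Argonaute protein to partly complementary sites in messenger RNAs, which are then translated less or degraded. Granulosa cells line the antral follicle, make oestradiol from theca androgens under FSH, and turn to progesterone after the LH surge. EVs are membrane-bound particles that granulosa and other follicular cells release into the fluid, and miRNAs are among their cargo. miR-132 and miR-212 are made from 1 primary transcript that cyclic AMP signalling and LH induce. miR-224 responds to TGF-beta and has been tied to oestradiol release, miR-378 targets aromatase, the enzyme that makes oestradiol, and miR-320 and miR-383 have been studied for their effects on oestradiol output and proliferation. miR-202 is a miRNA of the gonads.

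The named miRNA loci took a smaller share of all counts in larger follicles. They held 23.1%, 14.1% and 26.9% of the counts in small 1, 2 and 4. The shares were 3.88%, 3.75% and 11.2% in medium 5, 6 and 8, and 1.58%, 1.43% and 5.65% in large 10, 11 and 12. Large 12 had the highest share of its group and medium 8 of its own. A level can therefore be read against the named miRNA loci or against all deposited loci, and these answer different questions. A normalized count below is the CPM, a count scaled to a fixed library sum, over the named miRNA loci, adjusted by trimmed mean of M-values (TMM) within them. CPM of all loci uses the library total instead.

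Compared with small follicle EVs, EVs of large follicles held more miR-132 and less miR-378 (both loci) relative to the other named miRNAs. miR-378c was also called lower, but it was on the list only through its small follicle counts, which favours that direction. miR-224, miR-320a and miR-202 did not pass the test in any pair of sizes. In large versus small follicle EVs, 4 of the 9 members passed a false discovery rate (FDR) of 0.05 in edgeR's quasi-likelihood test, 1 higher and 3 lower, against 42.2% of the 249 named miRNA loci (17.7% higher and 24.5% lower). The median log2 fold change was -0.34 over the members and -0.18 over the 249 loci. The 2 medians were -0.90 and -0.29 without large 12, -0.035 and -0.095 without large 10, and -0.16 and -0.16 without large 11. Both miR-378 loci lost the FDR call without small 4 or large 11, and both miR-320a loci gained it without large 12. In 5 of the 9 every large library lay on 1 side of every small one, against 53% of the 249. The share of members past either line was thus close to that of the named miRNA loci at large, and both counts include loci that were listed only through the small follicle libraries. Both counts also include the 2 loci of miR-378, which may share reads and are not independent of each other. A lower count per locus may come from fewer vesicles that carry a miRNA or from less of it in each vesicle, and in these bulk libraries the 2 cannot be told apart.

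**Figure D1:**
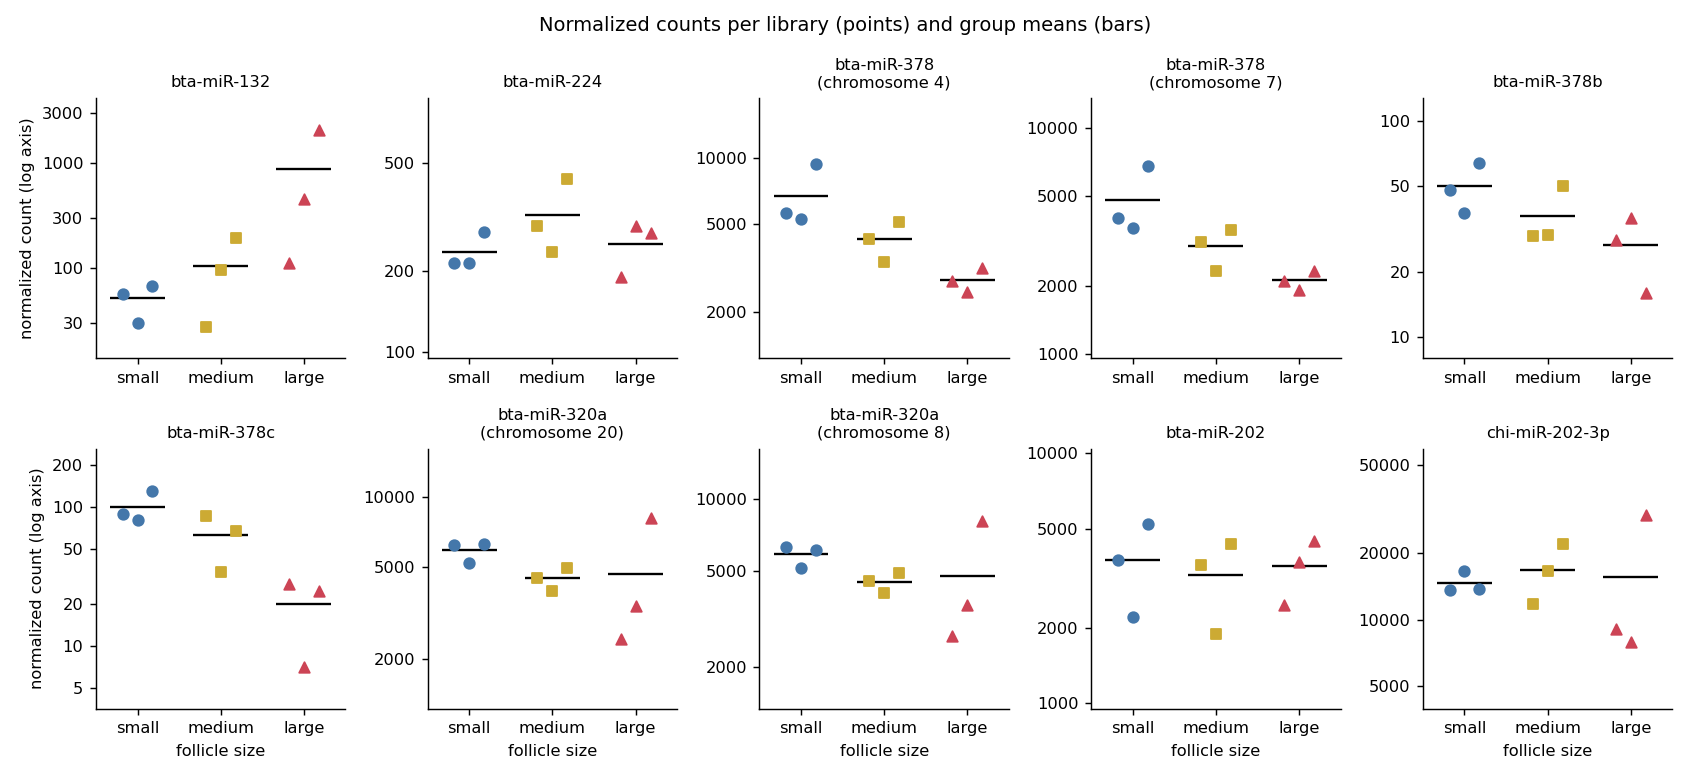
Normalized count (log axis) of the 9 member loci and of chi-miR-202-3p, the partner arm of bta-miR-202, in each of the 9 libraries, with follicle size on the horizontal axis. Points are libraries in the order of their numbers, bars are group means of 3 libraries. bta-miR-132 rises to 2068 in large 12 while both bta-miR-378 loci are lower in every large library than in every small one. bta-miR-378b and bta-miR-378c are lower in this way too. Both were listed only through their small follicle counts, which favours that direction.

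bta-miR-132, the cyclic AMP-induced miRNA, was counted at chr19:23651160-23651182 on the minus strand (build UMD3.1), a locus of 23 bases. Its raw counts were 184, 35 and 185 in small 1, 2 and 4. They were 15, 42 and 226 in medium 5, 6 and 8. Large 10, 11 and 12 had 20, 64 and 1169. Most of its 1940 reads thus came from 1 library, large 12, and 3 libraries rest on fewer than 40 reads each.

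The normalized counts of miR-132 were 56.6, 29.8 and 67.3 in the small follicle libraries. The medium libraries had 27.5, 95.7 and 190, and the large ones 112, 455 and 2068. All 3 large libraries lay above all 3 small ones, whereas the medium libraries overlapped both. The means of small, medium and large were 51.2 ± 19.3, 105 ± 81.8 and 878 ± 1044 (SD, n = 3 each), so the spread within the large group exceeded its mean. The log2 fold change in large versus small was 4.10 (SE 0.95, quasi-likelihood FDR = 0.00659). The call held without any 1 of the 9 libraries. Without large 12 the log2 fold change dropped to 2.44 (quasi-likelihood FDR = 0.020). Neither medium versus small (log2 fold change 1.04, FDR = 0.574) nor large versus medium (3.07, FDR = 0.0518) passed in the same edgeR fit. Large versus medium did pass with edgeR's exact test (3.07, FDR = 0.0135), DESeq2 (2.99, FDR = 0.00321) and DESeq2 size factors (2.99, edgeR FDR = 0.0475). It did not pass without TMM (2.87, edgeR FDR = 0.0503) or with only the 2 sizes compared (2.96, edgeR FDR = 0.0953).

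Against all deposited loci the picture for miR-132 was another one. It stood at 12.5, 3.91 and 18.2 CPM of all loci in the small libraries, 1.24, 3.59 and 21.2 in the medium and 2.05, 6.26 and 100.0 in the large ones. Large 10 and 11 were then among or below the small libraries, and only large 12 was above them. With this scaling the log2 fold change in large versus small was 1.64 and did not pass (edgeR FDR = 0.236). With TMM over all deposited loci it was 0.06 (edgeR FDR = 0.959), and with all deposited loci tested 0.05 (edgeR FDR = 0.997). The rise of miR-132 was therefore a rise relative to the other named miRNAs, and it did not pass the test per read of the whole library.

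The nearest deposited locus to miR-132 lay 406 bases away on the same strand, at chr19:23651589-23651609 (21 bases), with no miRNA name in the study's list. In the RefSeq table (ARS-UCD2.0, used only for gene order) the gene next to MIR132 is MIR212, but the identity of the unnamed locus was not checked by sequence. Its counts were 44, 12 and 39 in small libraries, 4, 16 and 44 in medium ones and 3, 9 and 259 in large ones. It followed miR-132 from library to library, at 14.1% to 38.1% of its count in each. The SD of the log2 ratio of the pair over the 9 libraries was 0.464. Among the other 248 named loci the smallest SD against miR-132 was 0.948, for miR-1307, followed by 0.999 for miR-92b and 1.09 for miR-142-5p, with a median of 2.14. The group mean of the unnamed locus reached 90.3 raw counts at most, below the mean of 100 that the study asked of a miRNA locus.

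miR-142-5p is a miRNA of blood cells, and the blood cell miRNAs were at their highest in the same size as miR-132. Of 7 such names (miR-142-5p, miR-142-3p, miR-144, miR-150, miR-223, miR-451 and miR-486), 4 had a locus, miR-486 was the most abundant, and none of the 4 loci was at 0 in any library, while miR-142-3p, miR-144 and miR-223 had no locus. Their summed normalized count was 814, 2492 and 490 in the small libraries and 1540, 2932 and 1534 in the medium ones. It was 7144, 10530 and 15500 in the large ones, above every small and medium library. Within a size the order differed from that of miR-132 in the small and medium libraries: small 2 and medium 6 had the highest blood sums of their groups, while miR-132 was highest in small 4 and medium 8. In large versus small follicle EVs miR-486 (log2 fold change 3.29) and miR-142-5p (2.25) passed the edgeR test, both higher, against 17.7% of the 249. miR-150 (5.68) was called higher too, but it met the minimum of 100 only through the large libraries (mean raw counts of 20, 27.7 and 177 in small, medium and large), which favours that direction. miR-451 had a log2 fold change of 2.04 and did not pass (edgeR FDR = 0.0623). In CPM of all loci the blood list summed to 180.5, 327 and 132.5 in small, 69.6, 110.1 and 171 in medium and 131.5, 145 and 750 in large libraries, with large 12 again highest. The part of blood cell miRNA in the miR-132 result was not tested.

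**Figure D2:**
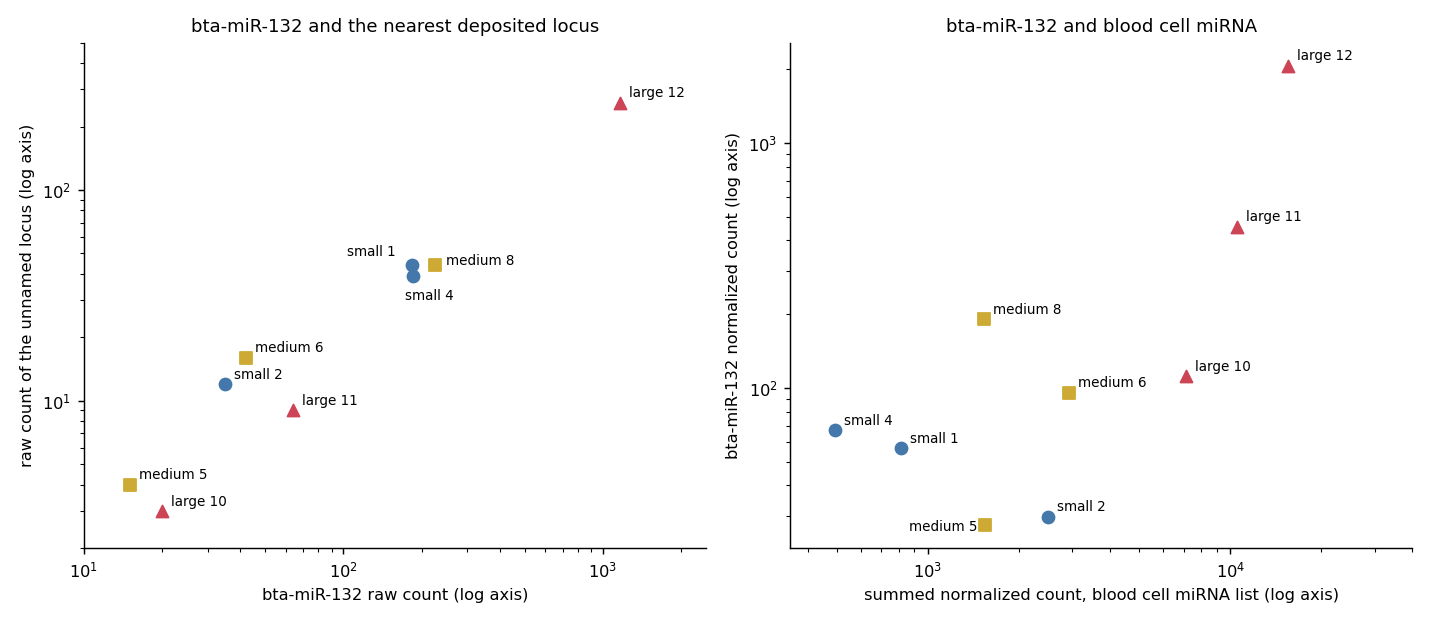
Left, raw counts of bta-miR-132 (horizontal) and of the unnamed locus 406 bases away (vertical) in the 9 libraries, on log axes. Right, summed normalized count of the 4 listed blood cell miRNAs (horizontal) and normalized count of bta-miR-132 (vertical), on log axes. Each point is 1 library, and large 12 is highest on all 4 measures.

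miR-378, the miRNA that targets aromatase, was less abundant in large versus small follicle EVs at both of its loci. The locus on chromosome 4 (chr4:10715305-10715327, plus strand) had normalized counts of 5574, 5255 and 9317 in small, 4290.1, 3358 and 5116 in medium and 2744, 2458 and 3148 in large libraries. Every medium library was below every small one, and every large library was below every medium one. The means were 6715 ± 2258, 4255 ± 880 and 2783 ± 347 (SD, n = 3 each). The log2 fold change in large versus small was -1.27 (SE 0.34, quasi-likelihood FDR = 0.0109).

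The miR-378 locus on chromosome 7 (chr7:63067343-63067364, plus strand) had normalized counts of 4014, 3628 and 6814 in small, 3115, 2317 and 3543 in medium and 2108, 1911 and 2326 in large libraries. Here large and medium libraries overlapped only between 2317 and 2326. The log2 fold change in large versus small was -1.19 (SE 0.34, quasi-likelihood FDR = 0.0162). Both loci lost the call without small 4, the highest small library, at log2 fold changes of -0.84 and -0.74 (edgeR FDR = 0.0771 and 0.110). They also lost it without large 11 (edgeR FDR = 0.0521 and 0.0645), where the log2 fold changes hardly moved, at -1.19 and -1.12.

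The 2 miR-378 loci held counts in nearly 1 ratio throughout. The chromosome 4 locus had 1.29 to 1.45 times the count of the chromosome 7 locus in each library. A chi-square test of the 2 loci's counts over the 9 libraries gave 14.3 with 8 degrees of freedom (p = 0.0739). Loci with near-identical mature sequence can share reads, so the level of each alone is uncertain and the pair is not 2 independent observations.

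The relatives miR-378b and miR-378c were counted far lower. miR-378c (chr24:31729586-31729607, minus strand) had normalized counts of 88.9, 80.1 and 131 in small, 86.2, 34.2 and 67.4 in medium and 27.9, 7.10 and 24.8 in large libraries, with no overlap between large and either other size. Its raw counts in large 10, 11 and 12 were 5, 1 and 14, so the large group rests on 20 reads. The log2 fold change in large versus small was -2.23 (SE 0.56, quasi-likelihood FDR = 0.00902). Its mean raw counts were 248 in small, 47.3 in medium and 6.67 in large libraries, so it reached the minimum of 100 only in small ones, and a lower level in large ones was favoured by that choice. Its values are therefore a description. miR-378b (chr15:30727363-30727386, plus strand) had 47.7, 37.5 and 63.7 in small, 29.3, 29.6 and 49.7 in medium and 27.9, 35.5 and 15.9 in large libraries. Its large libraries all lay below its small ones, but the log2 fold change of -1.03 did not pass (95% interval -2.23 to 0.17, edgeR FDR = 0.153), at raw counts of 5, 5 and 9 in the large libraries. It too reached the minimum only in the small ones.

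Some miRNAs of stromal and smooth muscle cells were lower in large follicle EVs beside miR-378. Of the 7 loci of that list (miR-143, miR-145-3p, miR-199a-3p, miR-199a-5p and miR-214), none at 0 in any library, both miR-199a-3p loci were called lower in large versus small (log2 fold change -1.43 and -1.58), against 24.5% of the 249. The 2 miR-199a-3p loci had similar normalized counts in each library and may share reads, so they are not 2 independent observations. chi-miR-145-3p (-1.86) was called lower too, but it met the minimum of 100 only through the small libraries (mean raw counts of 395, 20.3 and 14.7 in small, medium and large), which favours that direction. The most abundant, miR-143, had a log2 fold change of -1.27 and did not pass (edgeR FDR = 0.086). The other 3 did not pass either, miR-199a-5p on chromosome 7 at 0.38 and on chromosome 16 at -0.50 and miR-214 at -0.39, and they also met the minimum only in small. The list summed to 24110, 6904 and 22190 normalized counts in small, 8632, 3089 and 6412 in medium and 5621, 5208 and 11230 in large libraries. Small 2 was thus low in this list while its miR-378 stood near that of small 1, and the part of these cells in the miR-378 result was not tested.

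**Figure D3:**
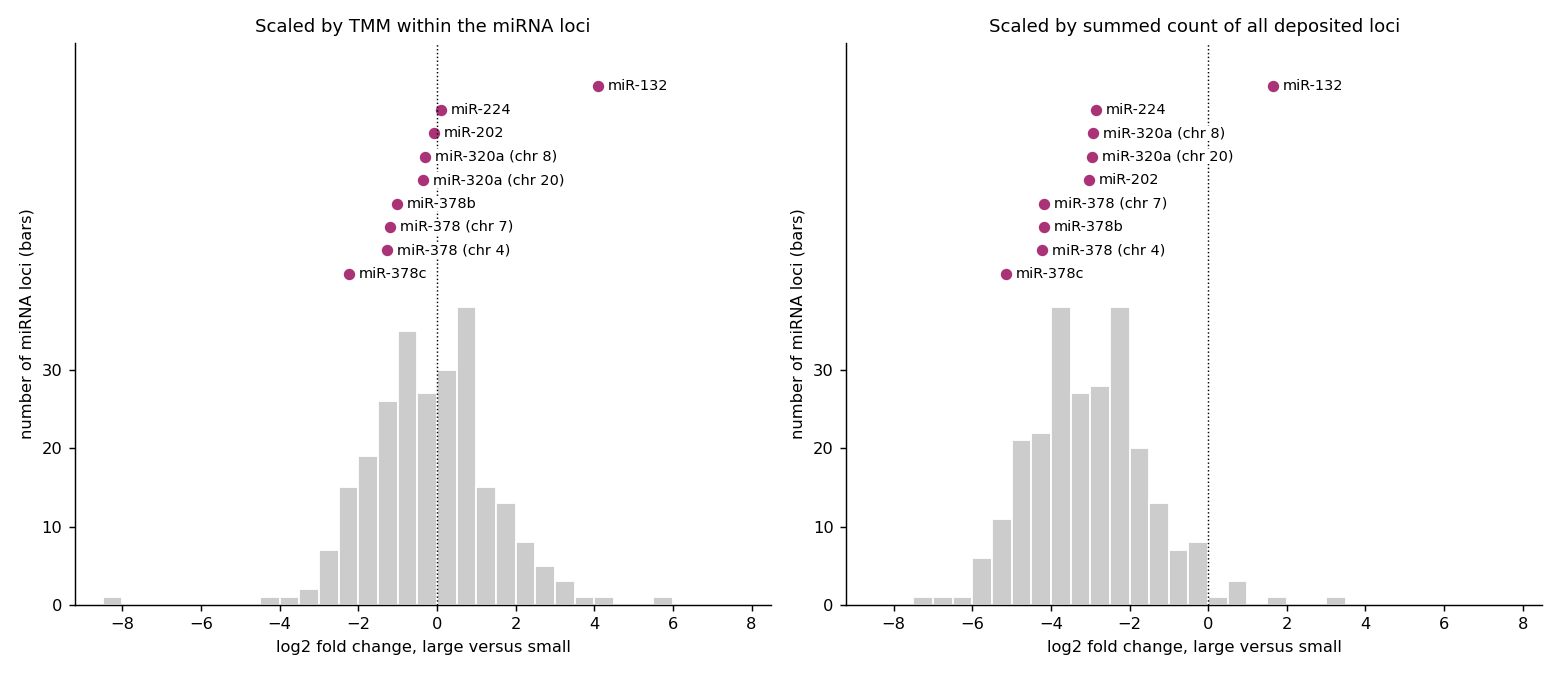
Log2 fold change in large versus small follicle EVs (horizontal) for the 249 named miRNA loci (grey bars, number of loci per 0.5 on the vertical axis) and the 9 members (points above the bars, placed by value and stacked only for reading). With TMM within the miRNA loci (left) the 249 have a median of -0.18, and with the summed count of all deposited loci (right) a median of -3.06, and bta-miR-132 is the only member to the right of 0 there.

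Scaling moved every member together with the rest of the miRNAs. With the summed count of all deposited loci, the median log2 fold change of the 249 in large versus small was -3.06, and with TMM over all deposited loci it was -4.72. Under the first of these, the 8 members other than miR-132 had log2 fold changes between -2.85 (miR-224) and -5.14 (miR-378c), and all 8 were called lower, as were 76.7% of the 249. miR-378 was below the shifted median and miR-132 above it. In CPM of all loci, 8 of the 9 members did not overlap between small and large, against 77.5% of the 249. Both counts of 8 include miR-378b and miR-378c. These were listed only through their small follicle counts, which favours a lower level in large libraries.

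miR-224, the TGF-beta-responsive miRNA, passed the test in no pair of sizes. It was counted at chrX:34664640-34664663 on the minus strand. Its normalized counts were 212.8, 213.8 and 278 in small, 293, 235 and 435 in medium and 190, 291 and 274 in large libraries. The sizes overlapped throughout, with means of 235 ± 37.6, 321 ± 103 and 252 ± 54.4 (SD, n = 3 each). The log2 fold change in large versus small was 0.10 (95% interval -0.68 to 0.88, edgeR FDR = 0.85).

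The nearest deposited locus to miR-224 was that of another named miRNA. The locus named mml-miR-452-3p lay 971 bases from miR-224 at chrX:34665635-34665656. Its count was 52.3%, 38.6% and 51.6% of that of miR-224 in small, 22.5%, 28.2% and 15.3% in medium and 14.7%, 4.88% and 12.3% in large libraries. The sizes did not overlap, but the large libraries rest on 5, 2 and 19 reads of it. It met the minimum of 100 only through the small libraries (a mean of 285 reads, against 48.0 in medium and 8.67 in large), which favours a lower share in the larger sizes.

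miR-320a had 2 loci with almost the same count. The locus on chromosome 20 (chr20:15213971-15213993, plus strand) had normalized counts of 6235, 5208 and 6308 in small, 4488, 3957 and 4938 in medium and 2437, 3403 and 8134 in large libraries. The locus on chromosome 8 (chr8:70060388-70060410, minus strand) had 6328, 5179 and 6167 in small, 4547, 4060 and 4925 in medium and 2688, 3623 and 8099 in large libraries. Large 10 and 11 were the lowest of the 9 libraries and large 12 the highest, at both loci. The log2 fold changes in large versus small were -0.34 (95% interval -1.24 to 0.56) and -0.29 (-1.15 to 0.57), and neither passed (edgeR FDR = 0.513 and 0.554). Without large 12 they were -1.02 and -0.90, and both passed (edgeR FDR = 0.0236 and 0.0382). The ratio of the chromosome 8 to the chromosome 20 locus was 0.978 to 1.10 in the 9 libraries (chi-square 10.7, 8 degrees of freedom, p = 0.218), so reads may be split between them and they count as 1 observation.

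miR-202, the gonadal miRNA, was found in all 9 libraries, as its arm bta-miR-202 (chr26:25988258-25988279, plus strand). The arm named chi-miR-202-3p lay 12 bases further on (chr26:25988292-25988314) and is given beside it, as its name carried another species prefix. bta-miR-202 had normalized counts of 3746, 2201 and 5229 in small, 3586, 1895 and 4320 in medium and 2459, 3687 and 4455 in large libraries. The sizes overlapped, and the log2 fold change in large versus small was -0.08 (95% interval -0.98 to 0.83, edgeR FDR = 0.916). chi-miR-202-3p had 13706, 16670 and 13833 in small, 11809, 16544 and 22112 in medium and 9118, 7900.2 and 29822 in large libraries, with large 12 the highest of all 9 and large 10 and 11 the lowest. Its log2 fold change was 0.08 (95% interval -0.96 to 1.13, edgeR FDR = 0.916). The 3p arm had 2.14 to 8.72 times the count of bta-miR-202, with 3.66, 7.57 and 2.65 in small, 3.29, 8.72 and 5.12 in medium and 3.7, 2.14 and 6.69 in large libraries. On the log2 scale this ratio had means of 2.065, 2.4 and 1.91 in small, medium and large, with SDs of 0.78, 0.70 and 0.82. The balance of the arms thus varied more within a size than between sizes, and showed no trend with size (exact permutation test, p = 0.802, adjusted p = 0.802).

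Between medium and small follicle EVs none of the 9 members passed (0% of the 249 loci passed in the quasi-likelihood test, and 17.7% had an unadjusted p under 0.05, which none of the members had). DESeq2 called none of the members either, and 11.2% of the 249. No overlap between medium and small was seen for 4 members, both loci of miR-378 and both of miR-320a, all lower in medium, against 28.5% of the 249 (16.9% lower). The 2 loci of each name may share reads, so these 4 members are not 4 independent observations. Between large and medium 0 of the 9 passed in the quasi-likelihood test, against 10.4% of the 249, and 2 had an unadjusted p under 0.05, against 32.1%. These 2 were miR-132 (log2 fold change 3.07) and miR-378c (-1.56, quasi-likelihood FDR = 0.0782). DESeq2 called these 2 members in this comparison, against 25.3% of the 249. The edgeR exact test called miR-132 only (FDR = 0.0135), against 20.9% of the 249. Without large 10 the log2 fold change of miR-132 was 3.58 and passed (quasi-likelihood FDR = 0.0348), and without large 12 it was 1.40 and did not (quasi-likelihood FDR = 0.182). No overlap was seen for 2 members, miR-378 on chromosome 4 and miR-378c, against 36.1% of the 249. In the test for any difference among the 3 sizes 4 members passed, against 33.7% of the 249: miR-132 (quasi-likelihood FDR = 0.00956), miR-378c (0.0261) and miR-378 on chromosomes 4 (0.031) and 7 (0.0434). Of these, miR-378c was listed only through its small follicle counts, so its pass is a description. In the test for any difference miR-132 lost its pass without large 12 (quasi-likelihood FDR = 0.0539). Both miR-378 loci lost theirs without small 1, small 4, medium 5, large 10 or large 11, and chromosome 7 also without medium 6. The 4 members that passed this test include both miR-378 loci, which are not 2 independent observations. The 3 comparisons share libraries, so they are not independent of each other.

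Count ratios between members need no scaling, since both counts come from the same library. Each was set against the summed miR-378 loci and tested for a trend over small, medium and large with an exact permutation test of the 9 libraries (1680 arrangements, smallest possible p = 0.00119, two-sided, adjusted over 9 ratios). The test treats the 9 libraries as exchangeable and takes no account of which of them share a collection. The ratio of miR-132 to miR-378 was 0.0034 to 0.00592 in small libraries, 0.00384 to 0.022 in medium ones and 0.0235 to 0.378 in large ones. The large libraries lay above all others, at 22.3 times the mean ratio of the small ones on the log scale (exact permutation p = 0.00714, adjusted p = 0.025). The ratio was 0.0235, 0.105 and 0.378 in large 10, 11 and 12, so large 12 raised that fold. The trend held with miR-320a as the denominator (exact permutation adjusted p = 0.0476) and missed the threshold with miR-202 (0.0524).

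miR-224 and miR-202 also gained on miR-378, although neither passed the test against the named miRNAs as a whole. The ratio of miR-224 to miR-378 was 0.0173 to 0.0241 in small, 0.0397 to 0.0503 in medium and 0.0396 to 0.0674 in large libraries, so both larger sizes lay above the small one and overlapped each other (2.44-fold large over small, exact permutation p = 0.00833, adjusted p = 0.025). The ratio of miR-202 to miR-378 was 0.248 to 0.391 in small, 0.334 to 0.499 in medium and 0.507 to 0.844 in large libraries, with only the large ones clear of the rest (2.23-fold, exact permutation p = 0.00476, adjusted p = 0.025). Against the summed miR-320a loci the trends of miR-224 and miR-202 no longer passed, so they depend on miR-378 as the denominator. With 8 libraries the trends of miR-132 and miR-224 missed the threshold without small 2, small 4, medium 6 or large 11, and that of miR-202 without small 2, small 4 or large 11, at exact permutation adjusted p-values of 0.0536 to 0.0696.

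Within the miR-378 family, the ratio of miR-378c to miR-378 was 2.12-fold lower in large than in small libraries on the log scale, and that of miR-378b to miR-378 had a slope of 0.17 on the log2 scale per size step. Both relatives were listed only through their small follicle counts, so these ratios are a description. miR-320a against miR-378 had a trend of 0.35 per step that did not pass (exact permutation p = 0.102, adjusted p = 0.132).

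**Figure D4:**
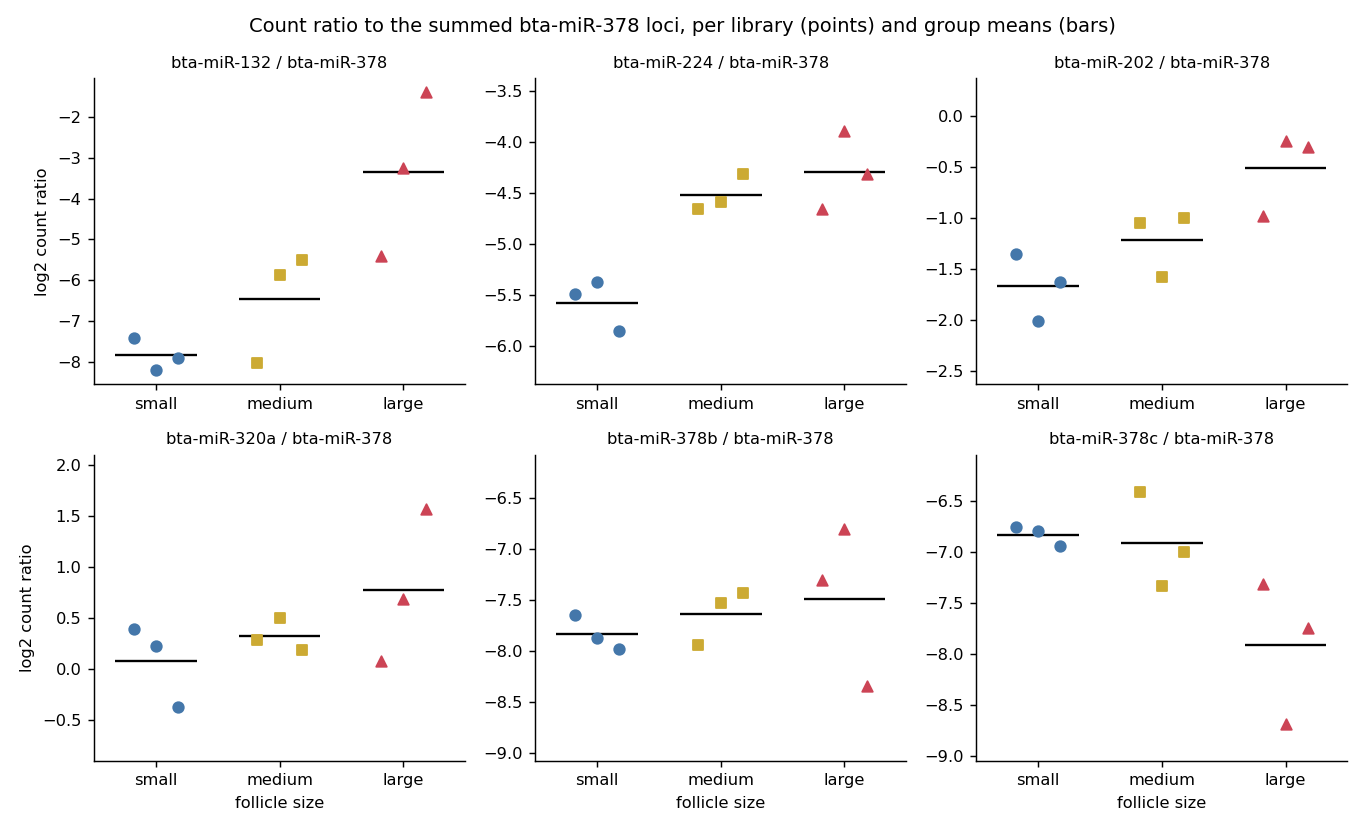
Log2 ratio of each miRNA's count to the summed count of the 2 bta-miR-378 loci (vertical, each panel with its own range) against follicle size (horizontal). Points are the 9 libraries and bars the group means. The ratio of bta-miR-132 ranges from 0.0034 to 0.378 on the linear scale, and those of bta-miR-224 and bta-miR-202 are higher in large than in small follicle EVs with no overlap.

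The 9 loci together made up 2.52%, 2.04% and 3.46% of the named miRNA counts in small, 2.38%, 1.6% and 2.35% in medium and 1.49%, 1.52% and 2.44% in large libraries. Within that sum miR-378 gave 36.5%, 40.7% and 46.9% in small and 36.2%, 35.5% and 36.7% in medium libraries. It gave 37.9%, 27.5% and 19.2% in large 10, 11 and 12. miR-132 gave 0.137% to 0.215% of the sum in small, 0.134% to 0.808% in medium and 0.872%, 2.86% and 7.24% in large libraries. The 3 large libraries thus differed widely in make-up, with large 10 close to the medium ones and large 12 farthest from them.

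As a share of the named miRNA counts, without TMM, the trend over the 3 sizes was upward for miR-132 (1.66 on the log2 scale per size step, exact permutation adjusted p = 0.0348). It was downward for miR-378 on chromosome 4 (-0.60) and chromosome 7 (-0.55), each at an exact permutation adjusted p = 0.0286. miR-378c, listed only through its small follicle counts, had a trend of -1.12. The other 5 members did not pass, at adjusted p-values of 0.152 to 0.998 in the exact permutation test. With 8 libraries the trend of miR-132 missed the threshold in 7 of 9 cases, and those of both miR-378 loci missed it without small 4, medium 8 or large 11, at exact permutation adjusted p-values of 0.0563 to 0.106. As a share of all deposited counts miR-132 had no trend (0.09 per step, exact permutation adjusted p = 0.927), and the 8 others fell. Of these, miR-378b and miR-378c were listed only through their small follicle counts, so their fall is a description.

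**Figure D5:**
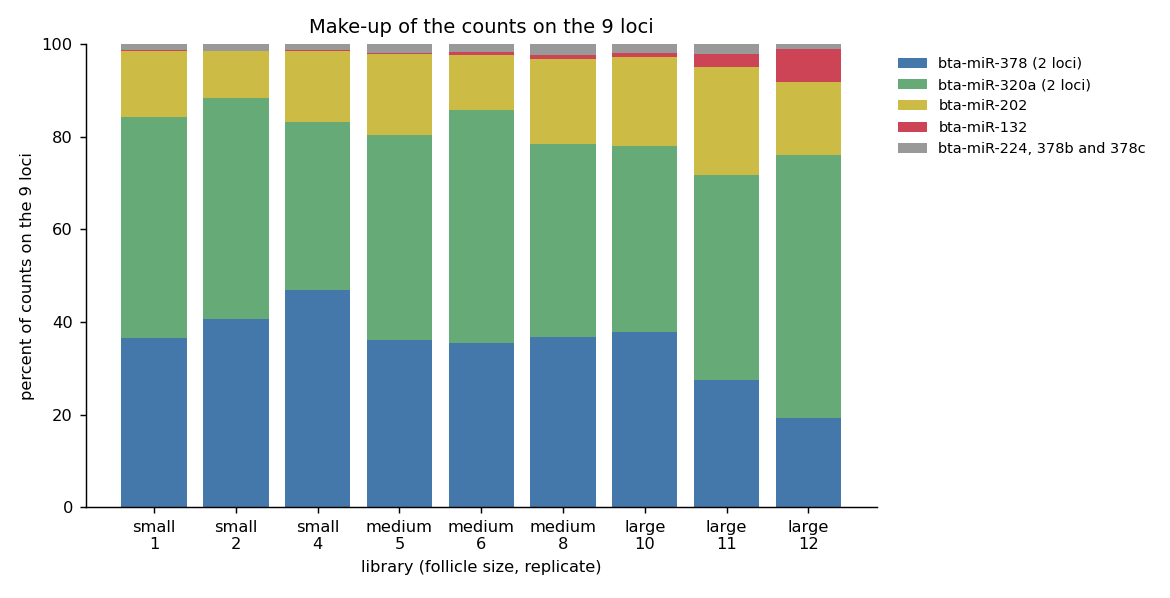
Percent of the counts on the 9 member loci (vertical) that each miRNA held in each library (horizontal), stacked to 100. bta-miR-378 held 46.9% in small 4 and 19.2% in large 12, and bta-miR-132 reached 7.24% in large 12.

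Beside miR-132, the loci most like each abundant member were other miRNAs, chosen by the SD of the log2 count ratio over the 9 libraries, with a second locus of the same name left out. For miR-224 they were miR-769 (0.247), miR-421 (0.27) and miR-2284x (0.319), where the median of the 248 loci was 0.837. For miR-202 they were miR-25 (0.259), chi-miR-500-3p (0.307) and miR-140 (0.313), with a median of 0.937. For miR-378 on chromosome 4 they were miR-660 (0.235), miR-130b (0.255) and miR-532 (0.322), with a median of 0.953. For miR-320a on chromosome 8 they were hsa-let-7f-2-3p (0.333), miR-455-5p (0.338) and chi-miR-125b-3p (0.373), with a median of 0.866. The closest locus to miR-132 by name, at 0.948, was thus farther from it than the median locus was from miR-202.

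Of 18 other miRNAs studied in granulosa cells, all had a locus, 20 in all, and none was at 0 in any library. In large versus small follicle EVs 4 loci were called higher and 4 lower in edgeR, with a median log2 fold change of -0.73, where 17.7% and 24.5% of the 249 were called higher and lower and their median was -0.18. miR-143 and chi-miR-145-3p of this list also stand among the stromal cell miRNAs above. The higher ones were miR-125a (1.78), both loci of miR-125b (2.00 and 2.06) and miR-182 (1.40). The 2 miR-125b loci had similar normalized counts in each library and may share reads, so they are not 2 independent observations. The lower ones were miR-10b (-0.94), the most abundant of the list, miR-15a (-1.16), miR-17-5p (-1.44), of a family that promotes proliferation, and chi-miR-145-3p (-1.86), listed only through its small follicle counts as given above. Of the others among the 4 most abundant, miR-423-5p (-1.20), miR-21-5p (-0.77), known for holding back apoptosis in granulosa cells, and miR-143 (-1.27) did not pass (edgeR FDR = 0.137, 0.182 and 0.086). None passed in medium versus small (0% of the 249). In large versus medium 2 were higher, both of them miR-125b loci, and 1 lower, against 10.4% of the 249 in either direction.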

How the data were processed

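The authors trimmed and mapped reads to UMD3.1 (BWA 0.7.5a per the submitters' processing notes), merged the 9 libraries to define loci, and deposited whole-number counts per locus and library. Names came from the study's list of known and homologous miRNAs, matched by locus ID, and its other columns were not used. The members and lists were chosen with earlier results of these data known. Counts of the 249 named loci were scaled by TMM and tested with edgeR 4.0.16 (R 4.3.3) by quasi-likelihood F tests on 3 size groups (n = 3 pools each), with Benjamini-Hochberg adjustment over the 249 and a threshold of 0.05. Intervals are 95%, from the fitted SE. Ratios and shares were tested by exact permutation (SciPy 1.17.1), with 0.5 added to counts. No read carried a molecular identifier, so p-values on counts within a library cover counting error only. A count of 0 would allow 3 reads, which is 0.884 to 20.5 CPM of the named loci. All members and chi-miR-202-3p are named in the text, with loci within 1000 bases, the 3 most alike loci per miRNA and up to 4 of the highest per list. DESeq2 1.42.0, edgeR's exact test, other scalings, filters, pseudocounts and leaving out each library were tried. On simulated counts of the 249 loci in large versus small, 41 of 50 loci changed by 2 on the log2 scale were called, with 2 unchanged loci, and smaller changes were not simulated. All simulated loci had 1 common spread, so these counts do not carry over to loci with a wider spread.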

Additional observations from a re-analysis of the deposited data

Results flagged for a closer look

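4 deposited loci without a miRNA name lay within 1000 bases of members and were outside the comparisons above, each with more reads than the 3 that a count of 0 allows, in total over the 9 libraries. The locus at chr7:63067305-63067326, 16 bases from miR-378 on chromosome 7, had 114 reads and was at 0 in medium 5 and 6 and in large 10 and 11. Beside miR-378c, chr24:31729928-31729961 had 979 reads, with 16 to 38 in small, 33 to 162 in medium and 124 to 226 in large libraries, unlike miR-378c itself, whose counts were lowest in the large ones. Near miR-320a on chromosome 8, chr8:70060061-70060090 had 122 reads and chr8:70060199-70060219 had 124.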

How the results depend on the processing

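The depth is lowest for the rarest members: miR-378b, miR-378c and miR-132 rest on 1 to 20 reads in several medium and large libraries. How large a difference must be to be detected at such counts was not measured. Scaling is another limit. With TMM over all deposited loci, with their summed count and with all deposited loci tested, 8 members each were called in large versus small, against 93.2%, 77.1% and 69.5% of the 249. Each 8 includes miR-378b and miR-378c, which were listed only through their small follicle counts. Each also counts both loci of miR-378 and both of miR-320a, which are not independent within a name. In medium versus small 6 and 1 were called with the first and second of these scalings (43.8% and 23.7% of the 249), and 8 and 8 in the test of any difference (86.7% and 67.5%). In large versus medium 2 were called at an FDR of 0.1 (26.1% of the 249) and 2 by DESeq2 (25.3%), and 1 each by the edgeR exact test (20.9%), with DESeq2 size factors (13.7%) and with loci of 1 name summed (14.7% of 225 names). Of the log2 fold changes outside the leave-one-out fits, 241 kept direction and call, 24 gained the call, 3 lost it and 32 changed sign.

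With TMM over all deposited loci, their summed count and all loci tested, in this order, log2 fold changes that turned negative were -1.27, -0.41 and -1.31 for miR-132 in medium versus small. For miR-224 they were -4.52, -2.85 and -4.54 in large versus small and -2.02, -1.09 and -2.05 in medium versus small. For chi-miR-202-3p they were -3.92, -2.38 and -3.94 in large versus small and -2.22, -1.31 and -2.24 in medium versus small. In large versus medium they were -1.48, -0.89 and -1.48 for miR-320a on chromosome 20, -1.47, -0.89 and -1.47 on chromosome 8, and -1.91, -1.20 and -1.90 for miR-202. Without TMM these 3 loci were at -0.11, -0.074 and -0.023. With only the 2 sizes compared miR-320a was at -0.072 and -0.041, and with DESeq2 and its size factors on chromosome 20 at -0.00035 and -0.00063. With loci of 1 name summed miR-202 in large versus small was at 0.016.

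With miR-320a as the denominator the trend per size step was 0.295 for miR-224, 0.231 for miR-202 and -0.175 for miR-378b. With miR-202 as the denominator it was 1.66 for miR-132, 0.0645 for miR-224, -0.405 for miR-378b, -1.12 for miR-378c and -0.231 for miR-320a. As a share of all deposited counts the trends were 0.0906 for miR-132, -1.50 for miR-224, -1.98 for miR-378b, -1.82 and -1.78 for miR-320a and -1.57 for miR-202. As a share of counts on loci of 18 to 30 bases they were 0.517, -1.08, -1.55, -1.40, -1.35 and -1.14. The cause of these changes was not tested.

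Leaving out 1 library at a time gave 2 to 6 members called in large versus small, 0 to 1 in large versus medium and 1 to 4 for any difference. The share of the 249 called in each of these fits is not given here. These counts therefore describe the members alone and show no difference from the other named loci. The log2 fold changes that changed sign in such fits ranged from -0.0087 to 0.35 for miR-224 in large versus small, from -0.34 to 0.36 (large versus small), -0.46 to 0.28 (medium to small) and -0.16 to 0.37 (large to medium) for miR-202, and in this order from -0.79 to 0.40, -0.056 to 0.39 and -0.98 to 0.21 for chi-miR-202-3p. For miR-320a in large versus medium they ranged from -0.61 to 0.37 and from -0.52 to 0.38. The ratio trends to miR-378 ranged from 1.72 to 2.65 for miR-132, 0.508 to 0.678 for miR-202, 0.547 to 0.760 for miR-224, 0.157 to 0.501 for miR-320a, 0.0186 to 0.374 for miR-378b and -0.645 to -0.328 for miR-378c. Those of the miR-320a loci ranged from 0.0242 to 0.0583 and of the miR-202 arms from -0.262 to 0.142. The share trends ranged from 1.16 to 2.02 for miR-132, -0.162 to 0.151 for miR-202, -0.0120 to 0.132 for miR-224, -0.438 to -0.139 and -0.379 to -0.115 for miR-320a, -0.687 to -0.472 and -0.646 to -0.412 for miR-378 and -1.27 to -0.857 for miR-378c. No paired analysis was possible because the sizes share no replicate numbers and the labels do not say which pools came from the same collection day.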
